A study of Homo sapiens with 12 samples.

Results

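The epidermal growth factor receptor (EGFR) family was followed here as 9 genes chosen by name: the receptors *EGFR*, *ERBB2* and *ERBB3*, the ligands *AREG*, *EREG*, *TGFA*, *HBEGF* and *EPGN*, and *ERRFI1*, an intracellular inhibitor of the receptors. They are 9 of the 60580 genes listed with counts. All 9 were among the 16123 genes that reached 20 counts in 1 or more libraries, but *EPGN* passed that filter only through its 22 counts in *WT* cells treated with DMSO, replicate 3. RNA was sequenced from HCT116, a human colorectal carcinoma line that retains functional p53. *WT* cells descend from cells that received an empty Cas9 vector, and *miR-34a/b/c-KO* cells, called knockout cells from here on, lack the sequences encoding miR-34a and miR-34b/c. Both genotypes were grown out from sorted single cells. The sources used here do not say whether replicates of a genotype are different clones, so clone and genotype cannot be told apart. Cells were exposed for 48 h to 5-FU, a drug that blocks thymidylate synthesis and damages DNA, or to the solvent DMSO. After the file of *WT* cells treated with 5-FU, replicate 1, was left out because it repeated the counts of replicate 3 of *WT* cells with DMSO (0 of 60580 genes differed), the states held 3 *WT* and 3 knockout libraries with DMSO and 2 *WT* and 3 knockout libraries with 5-FU.

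EGFR, ERBB2 and ERBB3 are receptors that pair with each other at the cell surface. EGFR binds ligands that are made as membrane-anchored precursors and cut free by ADAM proteases, among them amphiregulin (*AREG*), epiregulin (*EREG*), transforming growth factor alpha (*TGFA*), heparin-binding EGF (*HBEGF*) and epigen (*EPGN*). ERBB2 has no known soluble ligand and serves as a partner, and ERBB3 binds neuregulins and signals mainly to PI3 kinase. Activated receptors drive the RAS and ERK cascade, which in turn induces the mRNAs of several ligands and of *ERRFI1*, whose product MIG6 blocks the receptor kinase. In colorectal cancer, amphiregulin and epiregulin are the most studied of these ligands because EGFR is a drug target there.

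The deleted microRNAs act by pairing of bases 2 to 8, the seed, with sites in mRNAs. Their mature sequences (RefSeq, GRCh38.p14) are shown because the sites below were searched with them, with the seed in capitals. miR-34a-5p lies at chr1:9151735-9151756 on the minus strand and miR-34b-5p at chr11:111512950-111512972 on the plus strand. The other member of the family, miR-34c-5p, was not searched separately, because its mature sequence was not in the sources used here.
hsa-miR-34a-5p: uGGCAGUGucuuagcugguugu
hsa-miR-34b-5p: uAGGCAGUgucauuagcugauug

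Perfect matches to these seeds were found in the 3′ UTRs of 2 of the 9 genes. *AREG* held 1 match to miR-34a-5p, at base 35 of its 265-base 3′ UTR (chr4:74454775-74454781, plus strand, GRCh38). *TGFA* held 1 match to miR-34a-5p at base 70 of its 3575-base 3′ UTR (chr2:70450783-70450789, minus strand) and 1 match to miR-34b-5p at base 2897 (chr2:70447956-70447962, minus strand). The sites are shown 5′ to 3′ with the bases complementary to the seed in capitals, and both matches to miR-34a-5p are followed by an A.
AREG, miR-34a-5p: cacattggagtCACTGCCaagtcatagcc
TGFA, miR-34a-5p: cttcaggacagCACTGCCagagatgcctg
TGFA, miR-34b-5p: aggtacagaaaACTGCCTgttatcttcaa

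Of 18770 protein-coding 3′ UTRs, 15.7% held a match to the miR-34a-5p seed, 14.1% to the miR-34b-5p seed and 22.3% to either. *EGFR*, *ERBB2*, *ERBB3*, *EREG*, *HBEGF*, *EPGN* and *ERRFI1* held none in the transcript searched. A match is a string of letters and was not tested for binding.

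Total counts per library were between 22831415 and 39064210 (median 25698417), and the biological coefficient of variation was 6.72%. The p53 target *CDKN1A* was at 166 to 168 counts per 1000000 (CPM) in *WT* and 453 to 488 CPM in knockout cells with DMSO, and at 1977 to 2534 CPM in the 5 libraries treated with 5-FU. The rows of the miR-34 hairpins held 0 counts in all 11 libraries and therefore check no label. All 5 epithelial markers (*EPCAM*, *KRT8*, *KRT18*, *KRT19*, *CDH1*) were present. *PTPRC*, *CD3E*, *PECAM1*, *COL3A1* and *DCN*, which define leukocytes, endothelium and fibroblasts, stayed at or under 9 counts in every library. The other 3 of 8 such markers, *CD68*, *VWF* and *COL1A1*, were detected. Summed over all 8, these markers were at 42.7 to 44.6 CPM in *WT* and 66.6 to 70.1 CPM in knockout cells with DMSO, and at 88.7 to 103 and 105 to 106 CPM after 5-FU. Their part in the results was not tested.

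**Figure D1:**
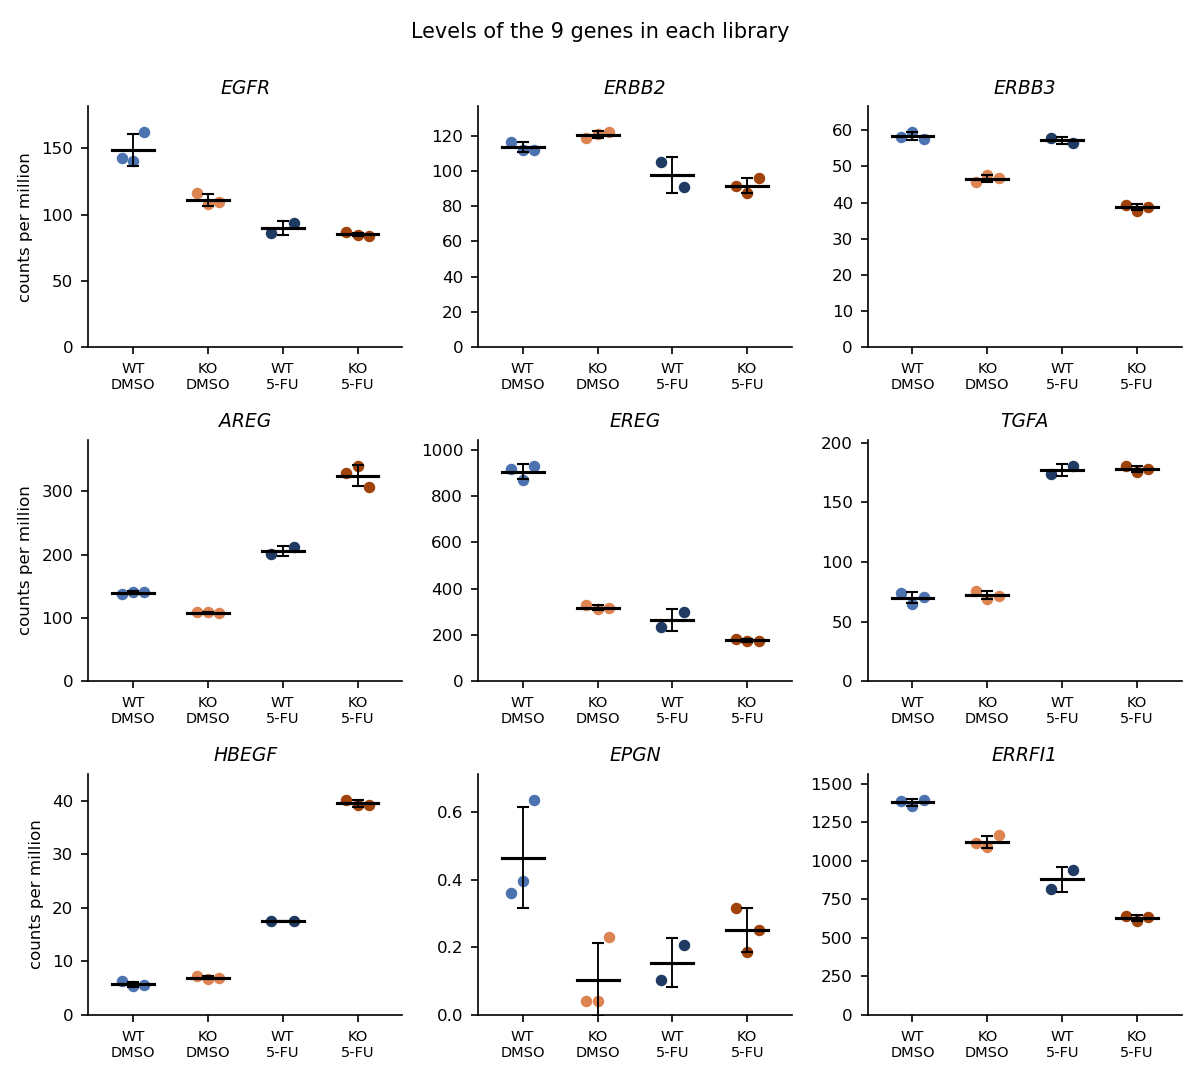
CPM (linear axes from 0) of the 9 genes in each of the 11 libraries. Each dot is 1 library, horizontal lines are means and bars are ± SD (n = 3, 3, 2 and 3; the bar of *EPGN* in knockout cells with DMSO is cut at 0). *EREG* stood apart in *WT* cells treated with DMSO (870.2 to 932 CPM), and *AREG* and *HBEGF* were highest in knockout cells with 5-FU (306 to 340.1 and 39.1 to 40.2 CPM).

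Among the receptors, *EGFR* (chr7:55019017-55211628) was highest in *WT* cells without drug and lower in the other 3 states. *WT* cells treated with DMSO had 143, 141 and 162 CPM and knockout cells 116, 108 and 109 CPM. After 5-FU, *WT* cells had 86.5 and 93.8 CPM and knockout cells 86.6, 84.7 and 84.1 CPM. The 3 *WT* libraries treated with DMSO were therefore highest, the 3 knockout libraries treated with DMSO came next, and the 2 states treated with 5-FU overlapped. A change was called at a false discovery rate (FDR) under 0.05 over all genes tested and a fold change above 1.5. By that rule *EGFR* was lower after 5-FU in *WT* cells (1.65-fold, log2 fold change -0.72, SE 0.07, FDR = 9.546e-08 by edgeR's quasi-likelihood test). Between the genotypes without drug it was 1.34-fold lower (FDR = 2.063e-05) and after 5-FU in knockout cells 1.31-fold lower (FDR = 2.95e-05), both under the minimum fold change. In bulk RNA, fewer cells expressing a gene and less RNA per cell cannot be told apart.

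*ERBB3* (chr12:56076799-56103505) was lower in knockout cells in both conditions. It was at 58.2, 59.5 and 57.4 CPM in *WT* and 45.7, 47.5 and 46.7 CPM in knockout cells with DMSO. With 5-FU it was at 57.9 and 56.5 CPM in *WT* and 39.4, 37.8 and 38.8 CPM in knockout cells. Every knockout library was below every *WT* library, and the *WT* libraries with and without drug overlapped. The difference between the genotypes was 1.25-fold without drug (FDR = 9.399e-05) and 1.48-fold with 5-FU (log2 fold change -0.56, SE 0.06, FDR = 8.387e-07), neither past the minimum fold change of 1.5. After 5-FU the log2 difference was -0.03 (SE 0.06, FDR = 0.68) in *WT* cells and -0.27 (SE 0.05, FDR = 0.00035) in knockout cells, whose libraries with and without drug did not overlap, the second again under the minimum fold change.

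*ERBB2* (chr17:39687914-39730426), the partner receptor, had the narrowest range of the 9 genes on the log2 scale, where its 4 state means of log2 CPM spanned 0.40, and lay between 87.2 and 122 CPM over all 11 libraries. Its means were 113 ± 2.83 CPM (SD, n = 3) in *WT* and 121 ± 1.80 CPM (n = 3) in knockout cells with DMSO, and 97.8 ± 10.1 CPM (n = 2) and 91.5 ± 4.24 CPM (n = 3) after 5-FU. It was lower after 5-FU by 0.21 on the log2 scale in *WT* cells (log2 fold change -0.21, FDR = 0.0077) and by 0.40 in knockout cells (log2 fold change -0.40, FDR = 1.289e-05), both under the minimum fold change. Exons of *ERBB2* share 5.53% of their bases with *MIEN1* and 1.4% with *PGAP3*, both on the opposite strand, and whether strand was used in counting is not given in the sources used here. None of these receptors was called between the genotypes in either condition, although *EGFR* without drug and *ERBB3* in both conditions passed the FDR alone. Of all genes tested, 9.1% were called higher and 4.97% lower without drug, and 7.58% and 10.6% with 5-FU.

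The ligands moved in different directions, and most of the change in the family lay in them. *EREG*, encoding epiregulin, was the most abundant ligand transcript in *WT* cells without drug and was lower in each of the other 3 states. It was at 916, 870.2 and 932 CPM in *WT* and 329, 310.1 and 316 CPM in knockout cells with DMSO. After 5-FU it was at 233 and 299.8 CPM in *WT* and 183, 172 and 174 CPM in knockout cells. The 4 states did not overlap.

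Without drug, *EREG* was 2.84-fold lower in knockout than in *WT* cells (log2 fold change -1.51, SE 0.07, FDR = 1.194e-10). 5-FU lowered it 3.40-fold in *WT* cells (log2 fold change -1.77, SE 0.08, FDR = 3.889e-11) and 1.81-fold in knockout cells (log2 fold change -0.85, SE 0.07, FDR = 3.808e-08). RUVg adds 1 factor of unwanted variation estimated from all genes but the 5000 with the smallest p. With it these 2 values turned to 0.89 (SE 1.06, FDR = 0.70) and 1.51 (SE 0.95, FDR = 0.40). Because 98.2% of the variance of that factor lay between the treatments, that fit cannot tell the drug response from the factor. In the reported fit the fall was thus smaller in knockout cells, which started from a lower level, and the difference of the 2 responses was 0.92 on the log2 scale (SE 0.11, FDR = 1.843e-05). Under 5-FU the genotypes still differed 1.51-fold (log2 fold change -0.59, SE 0.08, FDR = 1.42e-05), a value just past the minimum fold change. With other scalings (-0.55 with TMM factors, -0.54 with DESeq2, -0.46 with RUVg) it was under that minimum, as it was without *WT* 5-FU replicate 3 (-0.40) or without knockout 5-FU replicate 2 (-0.57) or 3 (-0.58).

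*AREG*, encoding amphiregulin, went the opposite way after 5-FU. It was at 137, 141 and 141 CPM in *WT* and 109, 109 and 107 CPM in knockout cells with DMSO. After 5-FU it was at 200.1 and 211 CPM in *WT* and 328, 340.1 and 306 CPM in knockout cells. No states overlapped, and the knockout cells were lowest without drug and highest with it.

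In knockout cells 5-FU raised *AREG* 3.0-fold (log2 fold change 1.58, SE 0.05, FDR = 2.93e-13). In *WT* cells it was 1.47-fold higher (log2 fold change 0.56, SE 0.05, FDR = 2.227e-07), just under the minimum fold change, and without *WT* 5-FU replicate 2 the value was 0.60 and past it. The response was 2.04-fold larger in knockout cells (log2 difference 1.03, SE 0.07, FDR = 2.065e-07). Between the genotypes *AREG* was therefore 1.29-fold lower without drug (FDR = 1.892e-05, under the minimum fold change) and 1.58-fold higher with 5-FU (log2 fold change 0.66, SE 0.06, FDR = 1.014e-07). The difference between the genotypes without drug was thus opposite in sign to that with drug.

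*HBEGF* (chr5:140332843-140346603) was the ligand with the widest range on the log2 scale, where its 4 state means of log2 CPM spanned 2.77 (2.36 for *EREG*), but its level was low. It was at 6.28, 5.38 and 5.53 CPM in *WT* and 7.27, 6.77 and 6.94 CPM in knockout cells with DMSO. After 5-FU it was at 17.5 CPM in both *WT* libraries and at 40.2, 39.1 and 39.2 CPM in knockout cells. Again no states overlapped. 5-FU raised it 3.05-fold in *WT* cells (log2 fold change 1.61, SE 0.09, FDR = 1.465e-10) and 5.64-fold in knockout cells (log2 fold change 2.50, SE 0.08, FDR = 1.928e-13), and the responses differed by 0.89 (SE 0.12, FDR = 5.038e-05). The genotypes differed 2.26-fold with 5-FU (FDR = 6.219e-09) and 1.22-fold without it (FDR = 0.014, under the minimum fold change).

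*TGFA* (chr2:70447284-70554193) responded to 5-FU with no difference detected between the genotypes. It was at 74.3, 65.0 and 70.6 CPM in *WT* and 75.3, 69.0 and 71.8 CPM in knockout cells with DMSO, and at 174 and 181 CPM in *WT* and 180.2, 175 and 178 CPM in knockout cells with 5-FU. The genotypes overlapped in both conditions, while all 5 libraries with 5-FU were above all 6 without. The rise was 2.53-fold in *WT* (log2 fold change 1.34, SE 0.06, FDR = 1.191e-11) and 2.47-fold in knockout cells (log2 fold change 1.30, SE 0.05, FDR = 5.484e-12). The responses differed by -0.04 on the log2 scale (SE 0.08, FDR = 0.78). Between the genotypes the log2 difference was 0.04 (SE 0.05, FDR = 0.57) without and 0.01 (SE 0.06, FDR = 0.95) with 5-FU.

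*EPGN* was close to the limit of detection. It had 10, 9 and 22 counts in *WT* and 1, 1 and 7 counts in knockout cells with DMSO, and 4 and 6 counts in *WT* and 8, 5 and 6 counts in knockout cells with 5-FU. The 3 *WT* libraries without drug held the most. The fit gave a log2 fold change of -2.02 (SE 0.59, FDR = 0.011) between the genotypes without drug, -1.64 (SE 0.61, FDR = 0.029) after 5-FU in *WT* cells and a difference of the responses of 2.74 (SE 0.90, FDR = 0.034). It was tested only through the state where it is high, so these values are a description. Without *WT* DMSO replicate 3 the gene was no longer tested, the second of these calls was lost without *WT* 5-FU replicate 2, and the third was kept in 5 of 10 fits that each left out 1 library.

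*ERRFI1* (chr1:8004404-8026309, minus strand), encoding the receptor inhibitor MIG6, was the most abundant of the 9 genes in CPM and fell along the same order of states as *EREG*. It was at 1386, 1352 and 1397 CPM in *WT* and 1115, 1091 and 1167 CPM in knockout cells with DMSO, and at 820.1 and 938 CPM in *WT* and 645, 609.7 and 636 CPM in knockout cells with 5-FU. No states overlapped. 5-FU lowered it 1.78-fold in knockout cells (log2 fold change -0.84, SE 0.05, FDR = 7.609e-10) and 1.57-fold in *WT* cells (log2 fold change -0.65, SE 0.06, FDR = 8.102e-08). The second value was -0.56, under the minimum fold change, without *WT* 5-FU replicate 2. With RUVg, whose factor lay mostly between the treatments, the values turned to 0.52 (SE 0.70, FDR = 0.73) in knockout and 0.88 (SE 0.79, FDR = 0.59) in *WT* cells. The genotypes differed 1.23-fold without (FDR = 0.00019) and 1.39-fold with 5-FU (FDR = 4.02e-06), both under the minimum, and no difference between the 2 drug responses was detected (-0.19, SE 0.08, FDR = 0.084).

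**Figure D2:**
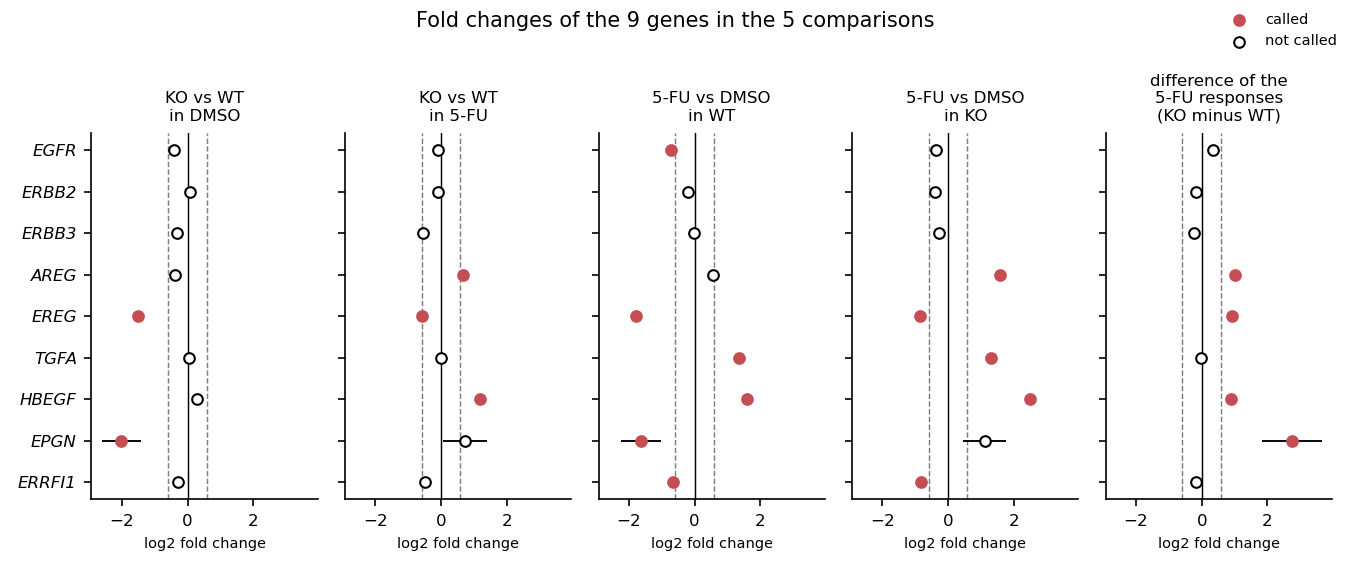
Log2 fold changes (x axis) of the 9 genes in the 5 comparisons, with bars of ± SE. Filled points were called (FDR under 0.05 and a fold change above 1.5, the dashed lines), and open points were not. *EREG* was called lower in all 4 pairwise comparisons, whereas *AREG* and *HBEGF* were called higher after 5-FU in knockout cells (1.58 and 2.50) and against *WT* cells under 5-FU (0.66 and 1.17).

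*EPGN* passed the filter only through *WT* cells without drug, where it is high, so its calls are named apart and not read against the shares over all genes. Of the 9 genes, 0 were called higher and 1 lower (*EREG*, beside *EPGN*) in knockout compared to *WT* cells without drug, where 9.1% of all genes tested were called higher and 4.97% lower. After 5-FU in *WT* cells 2 were higher (*TGFA*, *HBEGF*) and 3 lower (*EREG*, *EGFR*, *ERRFI1*, beside *EPGN*), where 18.5% and 9.38% of all genes were. After 5-FU in knockout cells 3 were higher (*AREG*, *TGFA*, *HBEGF*) and 2 lower (*EREG*, *ERRFI1*), against 13.3% and 12%. Between the genotypes under 5-FU 2 were higher (*AREG*, *HBEGF*) and 1 lower (*EREG*), against 7.58% and 10.6%. With RUVg 0 of the 9 were called after 5-FU in either genotype. Of all 16123 genes tested, RUVg left 3 called higher and 0 lower in *WT* cells, and 1 and 0 in knockout cells. Its factor had 98.2% of its variance between the treatments, so that setting cannot decide which genes responded to the drug. The median log2 fold change of the 9 genes was -0.32, -0.21, -0.27 and -0.08 in these 4 comparisons, and that of all genes tested was 0.03, 0.03, -0.06 and -0.05. These medians include *EPGN*, and the comparisons share control libraries. The 9 genes and the lists of genes below were chosen with earlier results of these data known. Their counts beside the shares of all genes are therefore a description.

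The drug responses of the 2 genotypes differed for 3 of the 9 genes (*AREG*, *EREG*, *HBEGF*), each with the more positive response in knockout cells, and for 0 in the other direction. Of all genes tested, 3.42% were called in the first and 6.66% in the second direction (551 and 1073 genes). This split moved to 676 and 844 genes with TMM factors and to 703 and 674 with DESeq2. All 3 genes are ligands. *EPGN* was called too (2.74), but it was testable only through the *WT* state in which it is high, and its call was kept in 5 of 10 fits that left out 1 library. *EGFR* (0.34, FDR = 0.0099) and *ERBB3* (-0.24, FDR = 0.032) also passed the FDR, under the minimum fold change.

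Per length of exon, the balance between the ligands was shifted from epiregulin to amphiregulin. Levels were divided by the union of exons (CPM per kb), and the 7 transcripts for EGFR ligands, with *BTC* (betacellulin) and *EGF* added, were summed. The sum was 263 ± 5.97 CPM per kb (SD, n = 3) in *WT* and 141 ± 2.39 (n = 3) in knockout cells with DMSO, and 217 ± 14.9 (n = 2) in *WT* and 279.9 ± 10.4 (n = 3) in knockout cells with 5-FU. Knockout cells thus had the lowest sum without drug and the highest mean with it, although the lowest of their libraries with 5-FU (268.2) was barely above the highest of *WT* cells with DMSO (268.1).

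*EREG* made up 60.3 ± 0.779% of the sum in *WT* cells treated with DMSO, 39.4 ± 0.559% in knockout cells with DMSO, 21.4 ± 2.37% in *WT* cells with 5-FU and 11 ± 0.502% in knockout cells with 5-FU. *AREG* made up 32.4 ± 1.01%, 46.7 ± 0.620%, 57.9 ± 1.72% and 70.6 ± 1.24% in the same order. The libraries of each state were separate from those of every other state for both shares. The ratio of *AREG* to *EREG*, which does not depend on the scaling between libraries, was 0.537 ± 0.0237, 1.18 ± 0.0326, 2.72 ± 0.382 and 6.41 ± 0.411, so that it passed from *EREG* excess to *AREG* excess. *TGFA* held 5.41 ± 0.287% of the sum in *WT* cells without drug and at most 16.6 ± 0.673%, in *WT* cells with 5-FU. *HBEGF* held 0.729 ± 0.0577% there and at most 4.72 ± 0.172%, in knockout cells with 5-FU.

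**Figure D3:**
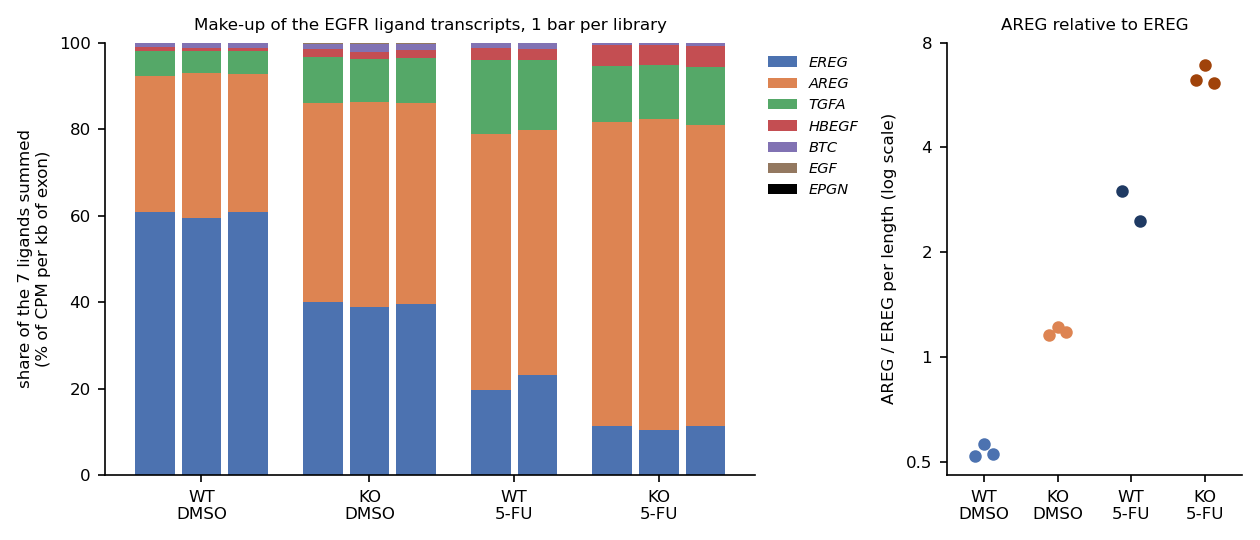
Left, the share of each ligand in the summed level of the 7 EGFR ligand transcripts (% of CPM per kb of exon), 1 stacked bar per library. Right, the ratio of *AREG* to *EREG* per length on a log2-spaced axis, 1 dot per library, rising from a mean of 0.537 in *WT* cells treated with DMSO to 6.41 in knockout cells with 5-FU.

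The order of the 9 genes per length was *ERRFI1* (330 CPM per kb), *EREG* (159), *AREG* (85.1), *TGFA* (14.2), *ERBB2* (11), *EGFR* (9.32), *ERBB3* (4.98), *HBEGF* (1.92) and *EPGN* (0.141) in *WT* cells treated with DMSO, and no neighbours in this order overlapped. In knockout cells with 5-FU it was *AREG* (198 CPM per kb), *ERRFI1* (151), *TGFA* (36.1), *EREG* (30.9), *HBEGF* (13.2), *ERBB2* (8.87), *EGFR* (5.34), *ERBB3* (3.30) and *EPGN* (0.0761), again without overlap of neighbours. Between these states *AREG* passed the inhibitor and *HBEGF* passed all 3 receptors. With the length of the longest transcript in place of the union of exons, 5 of the 9 genes kept their rank in all 4 states. The changes of rank were among *TGFA*, *HBEGF* and the receptors, and *HBEGF* then stayed below *ERBB2*.

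*EPGN* (chr4:74308470-74316789), *EREG* (chr4:74365145-74388749) and *AREG* (chr4:74445136-74455005) lie side by side on the plus strand of chromosome 4 in that order, and *BTC* starts 349 kb beyond *AREG*. The tested genes that start within 500 kb of any of the 3 are *CXCL1*, *MTHFD2L*, *BTC* and *PARM1*. *EREG* and *AREG*, whose starts are 80.0 kb apart, were called in opposite directions after 5-FU in knockout cells (-0.85 and 1.58) and between the genotypes under 5-FU (-0.59 and 0.66). The *EREG* value of the second comparison was under the minimum fold change with TMM factors (-0.55), DESeq2 (-0.54) and RUVg (-0.46). With RUVg, which cannot tell the drug response from its factor, that of the first turned to 1.51 (SE 0.95, FDR = 0.40). *BTC* was lower in knockout cells under 5-FU (log2 fold change -0.82, SE 0.16, FDR = 0.0005). Without drug it differed by -0.42 (FDR = 0.022), under the minimum fold change. *CXCL1* was higher after 5-FU in *WT* cells (0.98, FDR = 0.042) at a mean of 0.660 CPM, and *PARM1* was higher there too (0.60, FDR = 5.252e-06). *MTHFD2L* was called in no comparison. The 20 nearest tested genes on either side of *AREG* had a median log2 fold change of -0.05 between the genotypes without drug and -0.02 with 5-FU, both closer to 0 than the values of *AREG* and *EREG*.

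**Figure D4:**
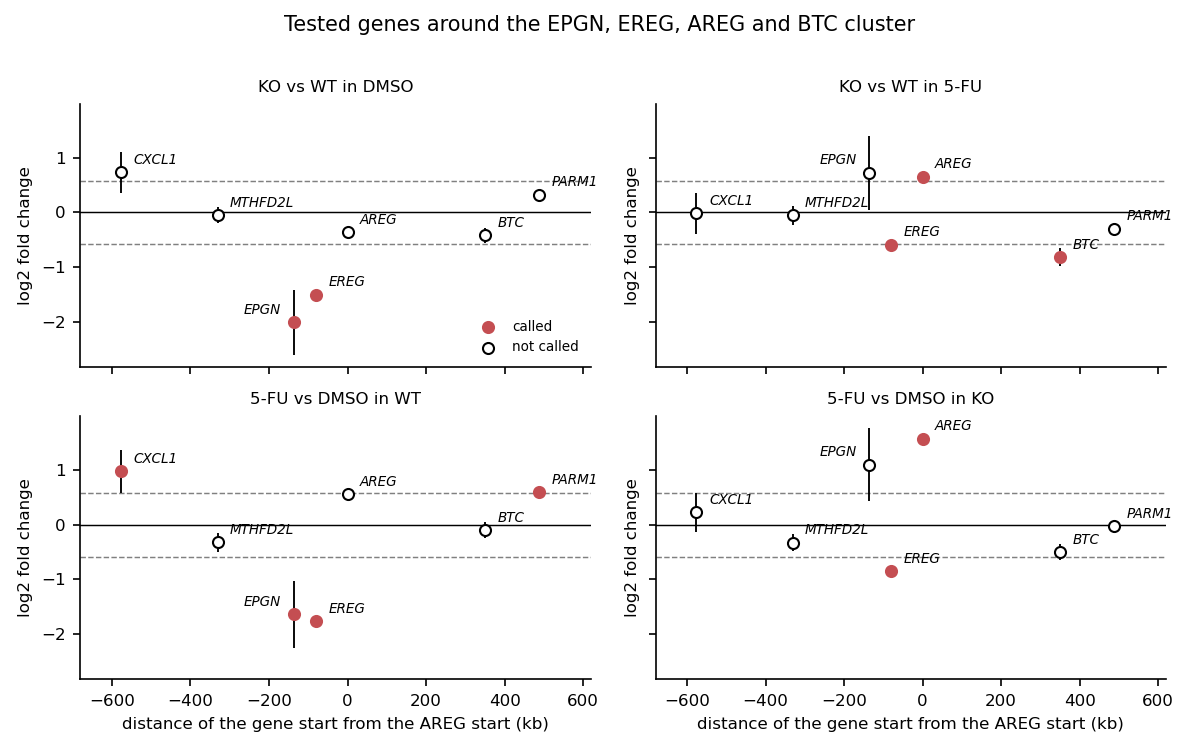
Log2 fold changes (y axis, bars ± SE) of the tested genes around the *EPGN*, *EREG* and *AREG* cluster against the distance of each gene start from the *AREG* start in kb. Filled points were called, and dashed lines mark a fold change of 1.5. *EREG* is below 0 in all 4 panels, while *AREG* is above 0 in every panel but that of the genotypes without drug (-0.37).

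The promoters of *AREG* and *EREG* are printed because these neighbours moved apart. They span 250 bases before to 50 bases after the start site (RefSeq, GRCh38.p14, plus strand), chr4:74444886-74445185 for *AREG* and chr4:74364895-74365194 for *EREG*. Capitals mark the motifs found.
AREG: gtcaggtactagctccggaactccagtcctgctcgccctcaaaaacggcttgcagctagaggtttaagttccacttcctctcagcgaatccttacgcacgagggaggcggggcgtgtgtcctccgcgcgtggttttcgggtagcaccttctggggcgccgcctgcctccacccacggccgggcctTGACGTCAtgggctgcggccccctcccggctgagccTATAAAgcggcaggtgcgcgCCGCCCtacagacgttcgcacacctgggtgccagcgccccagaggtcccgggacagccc
EREG: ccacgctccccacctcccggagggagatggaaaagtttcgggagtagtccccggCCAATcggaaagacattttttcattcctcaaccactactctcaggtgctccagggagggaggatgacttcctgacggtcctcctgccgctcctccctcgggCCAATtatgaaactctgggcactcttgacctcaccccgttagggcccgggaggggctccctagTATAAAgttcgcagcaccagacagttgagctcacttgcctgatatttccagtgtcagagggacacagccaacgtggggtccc

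The motifs searched on both strands, which do not overlap one another in these windows, were the cyclic AMP response element (CRE, TGACGTCA), the AP-1 site (TGACTCA), the GC box (GGGCGG), the TATA box (TATAAA), the CCAAT box (CCAAT), the E-box (CACGTG) and the p53 site. *AREG* held a CRE starting 65 bases before the start site, a TATA box 29 bases and a GC box 9 bases before it. *EREG* held a TATA box 32 bases and CCAAT boxes 196 and 95 bases before its start site. Of 35116 promoters of this length, 1.85% held a CRE, 4.95% an AP-1 site, 45% a GC box, 11.5% a TATA box, 34.6% a CCAAT box, 7.26% an E-box and 0.0285% a p53 site. Entries were found for 8 of the 9 genes, and *AREG* was the only one of them with a CRE in this window. These are matches of letters, and binding was not measured.

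Of the rest of the family, *ERBB4*, the fourth receptor, had at most 5 counts in a library, and *NRG3* had none. Of 5 tested ligands, *EGF* was higher in knockout cells both without drug (1.72 ± 0.245 against 4.42 ± 0.138 CPM in *WT* and knockout cells, log2 fold change 1.38, FDR = 7.309e-06) and with 5-FU (0.85, FDR = 0.0016). *NRG1*, a ligand of ERBB3, was higher after 5-FU in *WT* cells (log2 fold change 1.69, SE 0.20, FDR = 2.19e-06) and in knockout cells (1.99, SE 0.19, FDR = 1.574e-07), from 2.37 ± 0.774 to 7.49 ± 0.407 CPM and from 2.27 ± 0.474 to 8.96 ± 0.208 CPM. *NRG2* was higher in knockout cells without drug (1.18, FDR = 0.0016) and in *WT* cells after 5-FU (1.04, FDR = 0.0049), and its responses differed by -1.23 (FDR = 0.025). Its counts were low, at 17 to 35 per library in *WT* and 35 to 60 in knockout cells with DMSO, and at most 77 in any library. *NRG4* was called in no comparison and had 14 to 35 counts per library.

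Proteases and carriers that release the ligands, with 8 of 10 tested, held 1 gene called higher without drug and 1 under 5-FU in knockout compared to *WT* cells, and 0 lower. At 1 of 8 this was near the shares of all genes called higher (9.1% and 7.58%), and 4.97% and 10.6% of all genes were called lower. The first was *ADAM19*, a membrane protease, which rose from 38.3 ± 2.93 CPM (n = 3) in *WT* to 175 ± 5.39 CPM (n = 3) in knockout cells (log2 fold change 2.19, SE 0.06, FDR = 1.27e-13). 5-FU raised it in *WT* cells to 124 ± 6.84 CPM (n = 2; log2 fold change 1.70, FDR = 1.75e-12), and the responses differed by -1.87 (FDR = 1.34e-09). The second was *FRMD8*, a partner of the iRhom proteins that carry ADAM17 to the surface, at 71.2 ± 10.3 CPM in *WT* and 119 ± 2.46 CPM in knockout cells with 5-FU (log2 fold change 0.74, FDR = 1.152e-06). Its response to 5-FU was larger in knockout cells by 0.60 (SE 0.11, FDR = 0.00075). After 5-FU, 3 genes were higher (*ADAM19*, *FRMD8* and *RHBDF1*, encoding an iRhom) and 1 lower (*ADAM10*) in *WT* cells, and 2 were higher (*FRMD8*, *RHBDF1*) and 2 lower (*ADAM9*, *ADAM10*) in knockout cells. Of all genes tested, 18.5% were called higher and 9.38% lower after 5-FU in *WT* cells, and 13.3% and 12% in knockout cells. The list's median log2 fold change was 0.14 and 0.15 between the genotypes without and with drug, beside 0.03 and -0.05 over all genes tested.

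Of 14 genes for receptor turnover and inhibition, 1 was higher in knockout cells without drug and 2 under 5-FU, and 0 were lower, where 9.1% and 7.58% of all genes were called higher and 4.97% and 10.6% lower. *LRIG1*, a membrane protein that promotes degradation of EGFR, was at 6.27 ± 0.576 CPM in *WT* and 12.8 ± 0.329 CPM in knockout cells with DMSO (log2 fold change 1.03, SE 0.11, FDR = 1.512e-06) and at 4.20 ± 0.699 and 9.29 ± 1.02 CPM with 5-FU (1.14, SE 0.13, FDR = 3.416e-06). *SOCS4* was higher under 5-FU (0.67, FDR = 9.105e-06). The drug raised 1 gene (*UBASH3B*) in *WT* cells, and 2 (*UBASH3B*, *SOCS4*) in knockout cells, where 3 fell (*CBLB* and *CBLC*, ubiquitin ligases, and *LRIG3*). After 5-FU, 18.5% of all genes tested were called higher and 9.38% lower in *WT* cells, and 13.3% and 12% in knockout cells. No response differed between the genotypes by the rule used, and 2 of the 14 passed the FDR alone. By the rule used, the responses of 3.42% of all genes were more positive in knockout cells and those of 6.66% less positive. At any fold change, 1622 and 2585 of all 16123 genes tested passed the FDR in these directions. The list's median lay between -0.08 and 0.03 in all 5 comparisons.

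Of 24 genes for adaptors, kinases and regulators of the signal inside the cell, 0 were called between the genotypes without drug. Of these, 10 passed the FDR alone. At any fold change, 3943 of all 16123 genes tested passed it in the higher and 3529 in the lower direction. Under 5-FU 1 of the 24, *RASA1*, was lower (-0.63, FDR = 7.437e-06). Of all genes, 9.1% were called higher and 4.97% lower in the first comparison and 7.58% and 10.6% in the second. After 5-FU 2 were higher (*SHC1*, *HRAS*) and 1 lower (*PIK3R1*, the regulatory subunit of PI3 kinase) in *WT* cells, and 3 were higher (*SHC1*, *HRAS*, *STAT3*) and 2 lower (*PIK3R1*, *RASA1*) in knockout cells, where the shares of all genes were 18.5% and 9.38% in *WT* and 13.3% and 12% in knockout cells. The largest of these values were -0.99 for *PIK3R1* in *WT* cells (FDR = 6.241e-07), 0.93 for *STAT3* in knockout cells (FDR = 1.186e-10) and 0.91 for *HRAS* in *WT* cells (FDR = 3.173e-07). No response differed between the genotypes by the rule used, where 3.42% and 6.66% of all genes were called in the 2 directions, and 6 passed the FDR alone. At any fold change, 1622 and 2585 of all 16123 genes tested passed it in these directions.

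Transcripts induced by ERK did not move in 1 direction. Of 12, 2 were higher (*DUSP4*, *SPRY2*) and 2 lower (*EGR1*, *SPRY4*) in knockout compared to *WT* cells without drug, and 0 were called under 5-FU, with 6 passing the FDR alone. The shares of all genes called higher and lower were 9.1% and 4.97% without drug and 7.58% and 10.6% under 5-FU. At any fold change, 3483 of all 16123 genes tested passed the FDR in the higher and 4512 in the lower direction under 5-FU. *EGR1*, an immediate-early transcription factor, was at 92.5 ± 8.23 CPM in *WT* and 39.3 ± 3.86 CPM in knockout cells with DMSO (log2 fold change -1.23, SE 0.08, FDR = 5.418e-09), and at 37.9 ± 1.63 and 29.3 ± 2.36 CPM with 5-FU. *DUSP5*, a phosphatase of ERK, rose after 5-FU from 212 ± 1.59 to 384 ± 6.99 CPM in *WT* cells (0.85, FDR = 3.75e-10) and from 172 ± 3.87 to 435 ± 9.69 CPM in knockout cells (1.34, FDR = 5.828e-13). *EGR1*, *SPRY4* and *SPRY2* were lower after 5-FU in *WT* cells, and *SPRY2* in knockout cells, where *FOSL1* was higher (0.65, FDR = 4.261e-08). The shares of all genes called higher and lower after 5-FU were 18.5% and 9.38% in *WT* cells and 13.3% and 12% in knockout cells. The responses of *EGR1* (0.87, FDR = 0.00012), *SPRY4* (0.68, FDR = 1.9e-05) and *DUSP4* (-0.90, FDR = 5.704e-07) differed between the genotypes. Such a difference was called for 3.42% of all genes in the positive and 6.66% in the negative direction.

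The pattern of *EGFR*, the receptor with the widest range of state means, was most like that of *QTRT2*, *LBR* and *PRKRA* (Pearson's r of log2 CPM 0.986, 0.986 and 0.985 over 11 libraries). That of *HBEGF*, the ligand with the widest range of state means, both on the log2 scale, was most like that of *DRAXIN*, *PARD6G* and *CSRNP1* (r = 0.998, 0.996 and 0.996). Of 14000 genes compared, 159 had an r above 0.95 with *EGFR* and 458 with *HBEGF*, and all share the same 4 states.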

How the data were processed

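Random-primed cDNA was sequenced as read pairs on an Illumina NovaSeq. The authors aligned the reads to GRCh38/hg38 by CLC Genomics Workbench with ENSEMBL gene models, and the deposited values are raw counts per gene symbol and library. Strandedness is not given in the sources used here, so overlapping genes may share reads. Samples were grouped by their titles, and 1 file whose counts copied another was left out. Genes that reached 20 counts in 1 or more libraries were tested with edgeR 4.0.16 (R 4.3.3): upper-quartile factors (0.955 to 1.05), 1 mean per state, glmQLFTest, Benjamini-Hochberg FDR over 16123 genes, called at FDR under 0.05 and fold change above 1.5. SE is the log2 fold change divided by the square root of F. CPM uses the scaled totals. Lengths, coordinates and 3′ UTRs came from GENCODE release 44 (GRCh38). Alternatives were TMM factors, DESeq2 1.42.0, other filters, RUVg, glmTreat, a replicate block, the copied library kept, and each library left out. The scripts were tested on simulated data. The members and the lists of genes were chosen with earlier results of these data known. The text names all 9 genes, the other receptor and ligands, up to 3 called genes with the largest change per list (others where few were called), the 3 genes most like *EGFR* and *HBEGF*, and tested genes within 500 kb of *AREG*, *EREG* and *EPGN*. Total counts are given in the report.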

Additional observations from a re-analysis of the deposited data

Results flagged for a closer look

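The response of *AREG*, *HBEGF* and *EREG* to 5-FU differed between *miR-34a/b/c-KO* (knockout) and *WT* cells by edgeR's quasi-likelihood test of the difference itself. *EPGN* was called too, making 4 of the 9 genes, but is set apart because of how it came to be tested. Of all genes tested, 3.42% were called with a more positive response in knockout cells and 6.66% in the other direction. *AREG* responded with a log2 fold change of 0.56 in *WT* and 1.58 in knockout cells, a difference of 1.03 (SE 0.07, FDR = 2.065e-07). *HBEGF* responded with 1.61 and 2.50, a difference of 0.889 (SE 0.12, FDR = 5.038e-05). *EREG* responded with -1.77 and -0.85, a difference of 0.915 (SE 0.11, FDR = 1.843e-05). *EPGN* responded with -1.64 and 1.10, a difference of 2.74 (SE 0.90, FDR = 0.034), from 1 to 22 counts per library. It was testable only through *WT* DMSO replicate 3, in the state where it is high. Its call was kept in 5 of 10 fits that left out 1 library and was lost with RUVg (FDR = 0.33) and glmTreat (FDR = 0.28), and DESeq2 gave no adjusted p.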

How the results depend on the processing

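Counts of the 9 genes called are given beside the count of the reported fit, in brackets. All these counts include *EPGN* where it was called, although the report names its calls apart. Between the genotypes without drug (2), 1 gene was called with at least 20 counts in every library, with RUVg, with glmTreat (the minimum fold change inside the test) and with the copied library kept, and 7 with no minimum fold change. Of 13191 genes with at least 20 counts in every library, 1061 were called higher and 513 lower. Of all 16123 genes, 783 and 645 were called with RUVg and 602 and 327 with glmTreat. With the copied library kept these were 1028 and 619, and with no minimum fold change 3943 and 3529. Leaving out 1 library gave 1 to 2, with 1 without *WT* DMSO replicate 3, where *EPGN* was not tested. After 5-FU in *WT* cells (6), 0 were called with RUVg, whose factor had 98.2% of its variance between treatments, and 0 with the copied library kept, where a file of untreated cells counts as treated. Of all 16123 genes, 3 were called higher and 0 lower with RUVg, and 0 and 0 with the copied library kept. These 2 settings therefore say nothing particular about the 9 genes. After 5-FU in knockout cells (5), 0 were called with RUVg and 8 with no minimum fold change. Of all genes, 1 was called higher and 0 lower with RUVg, and 4286 and 5451 with no minimum fold change. Under 5-FU (3), 5 were called with no minimum fold change and 1 with glmTreat (*HBEGF*). Of all genes, 3483 were then higher and 4512 lower with no minimum fold change, and 478 and 709 with glmTreat. For the difference of the responses (4), 2 were called with glmTreat and 1 with the copied library kept. Of all genes, 135 were called in the positive and 154 in the negative direction with glmTreat, and 185 and 243 with the copied library kept. The other 73 recomputed counts were within 1.5 times the reported ones. DESeq2 gave no adjusted p for *EPGN* in the difference of the responses.

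The log2 difference of *TGFA* crossed 0 most often. Its difference of responses was 0.0234 with TMM factors, 0.0433 with DESeq2, 0.286 with the copied library kept and, leaving out 1 library, -0.0809 to 0.0125 (positive without *WT* DMSO replicate 2). Under 5-FU it was -0.00084 with at least 20 counts in every library, -0.0228 with the replicate block and -0.0204 to 0.0325 leaving out 1 library (-0.0204 without *WT* 5-FU replicate 2 and -0.0045 without knockout 5-FU replicate 1). Without drug it was -0.0074 (without *WT* DMSO replicate 2) to 0.0865. RUVg gave -0.0972 (SE 0.15) for *ERBB2* between the genotypes without drug. For 5-FU in *WT* cells it gave 0.892 (*EREG*, SE 1.06) and 0.884 (*ERRFI1*, SE 0.79). In knockout cells it gave 1.51 (*EREG*, SE 0.95) and 0.524 (*ERRFI1*, SE 0.70). With the copied library kept, *EPGN* under 5-FU was -0.325 and the difference of responses of *EGFR* -0.0058. *ERBB2* under 5-FU was -0.199 to 0.0163 leaving out 1 library, positive without *WT* 5-FU replicate 2. Among the other recomputed log2 fold changes of the 9 genes, 652 kept direction and call, 41 lost the call and 17 gained it. By gene length, 5 of 9 ranks were kept.

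Same-numbered replicates did not deviate together (r -0.184 to 0.149, 1 of 15 pairs over 0.1). With the replicate block, by title, 2, 6, 5, 3 and 4 genes were called in the 5 comparisons, counting *EPGN* where it was called. With a block by the number in the column names, chosen after seeing the data, the counts were 2, 5, 5, 3 and 3. Where 1 of the 2 *WT* 5-FU libraries was left out, the other was assumed to vary like the other groups. The depth was not limiting except for *EPGN* (at most 22 counts).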
